A study of Rattus norvegicus with 12 samples.

Results

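The SLC25 carriers are the mitochondrial carrier family, proteins of the inner mitochondrial membrane that exchange nucleotides, phosphate, carboxylates, amino acids, acylcarnitines and cofactors between the cytosol and the matrix. A few members sit in other membranes: the product of Slc25a17 is a peroxisomal carrier and that of Slc25a46 lies in the outer mitochondrial membrane. The heart makes most of its ATP in mitochondria, so ADP/ATP exchange, phosphate import and acylcarnitine import are main routes in cardiomyocytes. The members were all rows of the deposited gene table whose symbol starts with Slc25a, which gave 40 of 17322 gene models. Of these, 36 passed the filter on low values (a mean scaled value of at least 0.5) and were tested among 12980 models. RefSeq lists 49 rat symbols of this form, and the other 9 (among them Slc25a12, Slc25a13, Slc25a31 and Slc25a36) were not analysed here.

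RNA sequencing of whole hearts from Sprague Dawley rats covered 4 groups of offspring at 15 weeks of age, with 3 libraries in each group. Dams of the GDM groups (gestational diabetes mellitus) had eaten a high fat and sucrose diet (HFS) before mating, through pregnancy and during lactation, whereas Lean dams had a low fat diet (LF). Pups were allotted at random to LF or HFS at weaning at 3 weeks, so that each group is named by the dam and then by the diet of the offspring (Lean-HFS, for example). No allele or drug distinguished the groups. The diabetic state of the GDM dams and the diet that induced it cannot be told apart in this design. Litters are not named in the labels, and p-values therefore reflect scatter among the sampled hearts alone. The comparisons ask how dam, offspring diet and their combination relate to cardiac transcripts.

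Values are scaled reads: whole reads per gene model, put on a common scale over libraries by the median of gene ratios. They appear to have been counted over the whole span of a model, introns included, and were not divided by length. Levels of different genes are therefore compared per kb of span. A level per kb depends on intron length as well as on transcript amount. Of the recovered counts from 1 to 40, 67.8 to 73.6% in a library were even numbers. Whether both reads of a pair were counted was not tested. Recovered reads outside ribosomal RNA numbered 9172734 to 14418970 per library. They were 10418380 to 14418970 in the GDM libraries and 9172734 to 11622377 in the Lean libraries. With ribosomal RNA included, recovered reads numbered 22661235 to 31258255, so much of each library was still ribosomal RNA after depletion. Lean-LF 1 had the most reads of all and the fewest outside ribosomal RNA. All 10 cardiomyocyte markers checked were present in every library, and Myh6 (alpha myosin heavy chain) had 28846 to 102097 scaled reads. The lowest Myh6 value belonged to the library Lean-HFS 2, while the other 11 lay at 62300.4 or above. Lean-HFS 2 also held the highest Postn (periostin, a matrix protein of activated fibroblasts) at 369 and the highest summed macrophage markers at 1428 against 663 to 856 elsewhere. For Slc25a3, Slc25a4, Slc25a5, Slc25a11, Slc25a17, Slc25a20, Slc25a24, Slc25a29 and Slc25a42 the diet difference is also given without it.

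Promoter sequences are shown for the 2 carriers with the smallest p-values in the diet and dam comparisons, Slc25a29 and Slc25a39, and for the 2 with the highest level, Slc25a4 and Slc25a3. Each is the 250 bases upstream of the RefSeq start in GRCr8, read 5′ to 3′ on the gene's strand, with the motif CCGGAAG (an ETS factor core) in capitals. The Slc25a29 window lies at chr6:133517198-133517447 on the minus strand and the Slc25a39 window at chr10:87866974-87867223 on the minus strand. The Slc25a4 window lies at chr16:52805271-52805520 on the plus strand and the Slc25a3 window at chr7:27506628-27506877 on the minus strand.
Slc25a29: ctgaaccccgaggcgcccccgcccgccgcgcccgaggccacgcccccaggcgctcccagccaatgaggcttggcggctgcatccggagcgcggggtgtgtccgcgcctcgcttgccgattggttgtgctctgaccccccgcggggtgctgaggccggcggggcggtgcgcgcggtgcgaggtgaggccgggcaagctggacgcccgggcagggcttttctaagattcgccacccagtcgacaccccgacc
Slc25a39: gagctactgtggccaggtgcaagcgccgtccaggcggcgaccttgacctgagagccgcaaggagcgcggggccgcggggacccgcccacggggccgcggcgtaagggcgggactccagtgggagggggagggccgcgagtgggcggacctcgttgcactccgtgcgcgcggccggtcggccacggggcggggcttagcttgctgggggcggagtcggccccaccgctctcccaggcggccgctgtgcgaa
Slc25a4: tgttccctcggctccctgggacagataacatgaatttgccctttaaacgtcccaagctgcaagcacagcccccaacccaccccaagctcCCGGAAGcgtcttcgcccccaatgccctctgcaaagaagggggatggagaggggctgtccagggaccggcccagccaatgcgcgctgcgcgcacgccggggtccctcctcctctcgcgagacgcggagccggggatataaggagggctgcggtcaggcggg
Slc25a3: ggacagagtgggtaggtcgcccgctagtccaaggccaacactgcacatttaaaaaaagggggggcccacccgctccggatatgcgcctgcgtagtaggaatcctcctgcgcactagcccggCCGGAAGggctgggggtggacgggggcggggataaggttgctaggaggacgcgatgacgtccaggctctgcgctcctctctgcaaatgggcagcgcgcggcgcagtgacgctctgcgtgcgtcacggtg
G and C made up 74.8% of the Slc25a29 window, 76.4% of that of Slc25a39, 65.6% of that of Slc25a4 and 65.2% of that of Slc25a3. The median was 57.6% over the 34 members matched in RefSeq and 51.2% over all 33469 windows.

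In windows of that length, searched on both strands, CCGGAAG was found in 6 of 34 members (17.6%: Slc25a3, Slc25a4, Slc25a14, Slc25a20, Slc25a38 and Slc25a54) and in 7.27% of all windows. The estrogen-related receptor core AAGGTCA was in 1 member, Slc25a34, and in 3.99% of all windows. The E-box CACGTG was in 2 members, Slc25a2 and Slc25a33, and in 5.59% of all windows. The DR1 direct repeat of AGGTCA, whose letters overlap AAGGTCA, was in 0 members and 0.0508% of all windows, and the palindromic NRF1 motif was in 0 members and 0.762%. Windows of Slc25a29 and Slc25a39 held none of the 5 motifs. A match describes letters in this window and not a bound site.

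The family was dominated by a few carriers. Per kb of span, the ADP/ATP carrier Slc25a4 (ANT1, the muscle and heart form) had the highest level at 1995 scaled reads, followed by the phosphate carrier Slc25a3 at 573. The oxoglutarate/malate carrier Slc25a11 followed at 273, the second ADP/ATP carrier Slc25a5 (ANT2) at 94.1, Slc25a34 at 54.4, Slc25a39 at 53.1 and the carnitine/acylcarnitine carrier Slc25a20 at 29.5. Slc25a23 at 12.6, Slc25a46 at 7.93 and Slc25a42 at 7.03 completed the first 10. This order depends on span and is not an order of transcript amounts. Slc25a20 had a mean of 633 scaled reads over 21.5 kb, and Slc25a11 had 578 over 2.1 kb. The ranges over the 12 libraries did not overlap between neighbours in this order from Slc25a4 to Slc25a34 and from Slc25a39 to Slc25a46, but those of Slc25a34 and Slc25a39 did overlap, as did those of Slc25a46 and Slc25a42. Further down, only Slc25a40 and Slc25a18 were neighbours with separate ranges.

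**Figure D1:**
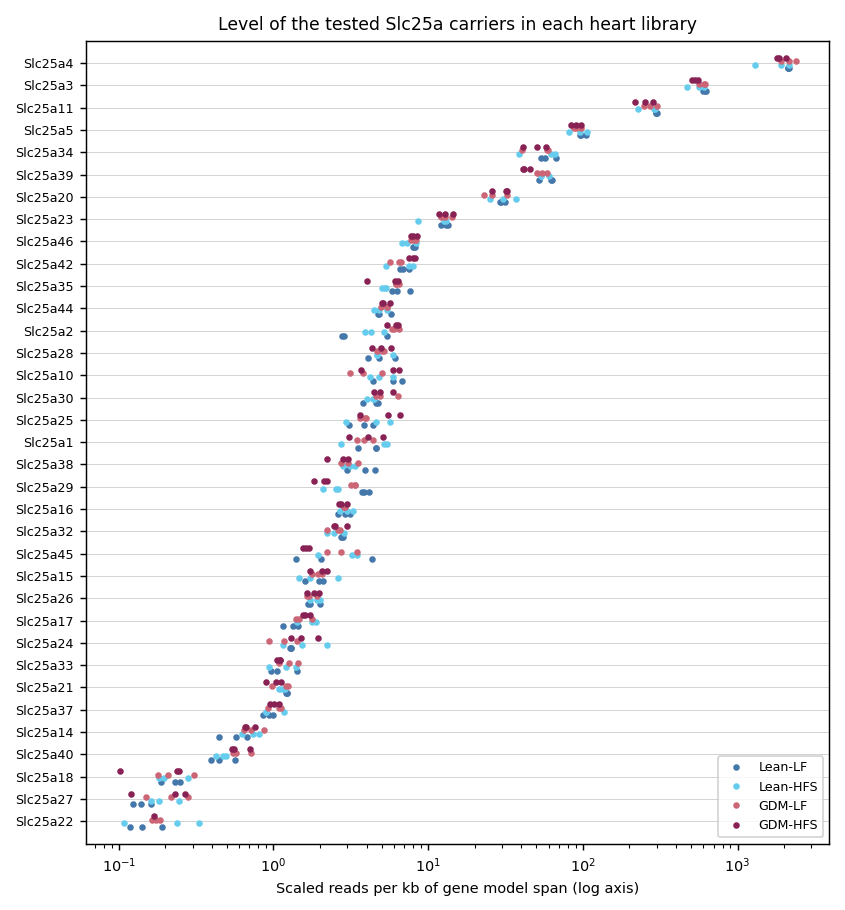
Level of 35 of the 36 tested carriers per kb of gene model span, on a log axis, with 1 point per library coloured by group and carriers ordered by mean level. Slc25a4 lies highest at a mean of 1995 scaled reads per kb, the groups overlap for most carriers, and the 2 libraries with 0 reads of Slc25a22 have no point.

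Unscaled by length, Slc25a4 alone gave 40.01 to 50.3% of the reads of the family in a library. Slc25a21, the oxodicarboxylate carrier, had a mean of 558 scaled reads, but its model spans 495.6 kb and its level per kb was 1.13. The other 4 models stayed below the filter and were not tested. Slc25a53 had 0 to 8 reads in a library, Slc25a47 0 to 4, Slc25a54 0 to 4 and Slc25a41 0 to 2. The scatter between libraries of a group was like that of other genes, with a median within-group SD of 0.21 (log2) over the 36 carriers and 0.21 over all tested models. It was smallest for Slc25a46 at 0.090 and largest for Slc25a22 at 1.18.

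No carrier passed the limma test (Benjamini-Hochberg adjusted p under 0.05 over 12980 models) in any of the 7 comparisons, and edgeR on the recovered reads also called 0 in each. DESeq2 called 1 carrier, Slc25a29, in HFS against LF averaged over dams, and 0 in each of the other 6 comparisons. For the diet average limma and edgeR each called 0% of all models and DESeq2 0.239%. For the dam average limma and edgeR each called 0.0616% and DESeq2 1.19%. At an unadjusted limma p under 0.05, the diet comparison held 5 of 36 carriers (3 lower and 2 higher under HFS) beside 7.92% of all models (3.91% lower and 4.01% higher). That count was 8 of 36 without GDM-LF 3 and 2 of 36 without GDM-LF 1 or GDM-LF 2. The average GDM against Lean comparison held 5 of 36 (2 lower and 3 higher) beside 11.2% of all models (5.48% lower and 5.76% higher). Fewer cells of a type and less RNA per cell cannot be told apart in these bulk libraries.

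Within each dam group the diet comparisons held 2 of 36 carriers in Lean offspring (background 5.21%, called 0%, with 5 of 36 when Lean-HFS 1 was left out and 1 of 36 when Lean-HFS 2 was) and 5 of 36 in GDM offspring (background 5.57%, called 0%). Within each diet the dam comparisons held 3 of 36 on LF (background 4.98%, called 0.0308%) and 4 of 36 on HFS (background 9.64%, called 0.0154%). The interaction of dam and diet held 1 of 36, Slc25a22, beside 3.01% of all models, of which 0% were called. DESeq2 called 0% of all models for diet in Lean offspring, 0.0539% for diet in GDM offspring, 0.131% for dam on LF, 0.362% for dam on HFS and 0% for the interaction, and edgeR called the same shares as limma. Each average shares libraries with the comparisons it combines, and the diet and dam comparisons share groups. All come from the same fit, so their counts are not separate evidence.

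The median log2 difference over the 36 carriers was -0.04 for HFS against LF and -0.04 for GDM against Lean, against medians of 0.01 and 0.00 over all tested models. In both comparisons 21 of 36 carriers had negative differences, beside 47.8% of all models for diet and 49.6% for dam. With values as deposited, without rescaling, 14 and 9 of 36 were negative, and the median of all models moved to 0.11 for both. The carrier medians moved as well, to 0.058 for diet and 0.071 for dam, and stayed below those of all models. The share of carriers with a negative difference thus moved with the scaling, together with the values of all models.

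**Figure D2:**
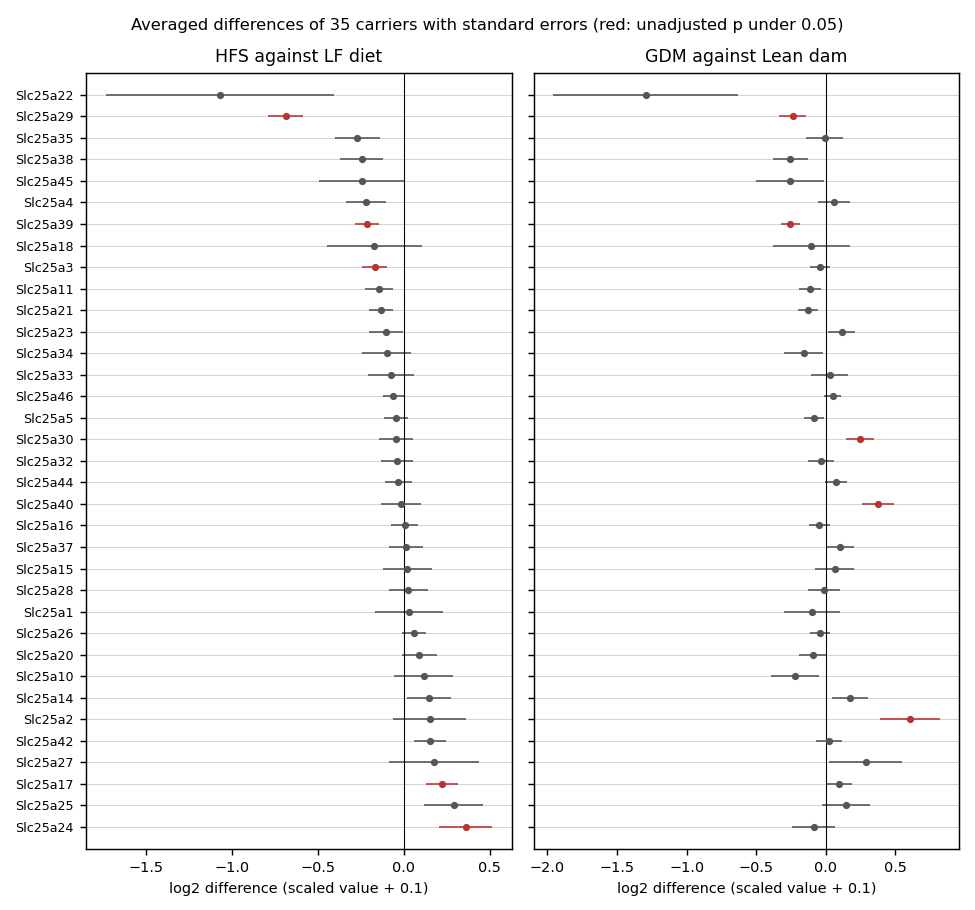
Log2 difference of 35 of the 36 carriers (points) with its limma standard error (bars) for HFS against LF (left) and GDM against Lean (right), ordered by the diet difference, with unadjusted p under 0.05 in red. Slc25a29 lies at -0.69 for diet with a short bar, and Slc25a22 has the longest bars.

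The carrier with the smallest p-value was Slc25a29, which imports basic amino acids such as arginine and lysine into the matrix. Its model lies at chr6:132736974-132747762 (Rnor_6.0, minus strand) and overlaps no other model. Lean-LF hearts had 44.7, 41.6 and 40.1 scaled reads and Lean-HFS hearts 27.4, 22.4 and 28.4. GDM-LF hearts had 36.3, 36.2 and 34.0, and GDM-HFS hearts 23.8, 19.8 and 22.8. Every LF heart lay above every HFS heart, with 34.0 as the lowest LF value and 28.4 as the highest HFS value. These values rest on 102 to 199 recovered reads per library, and the number of separate fragments behind them is not known.

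Averaged over dams, Slc25a29 was lower under HFS by a log2 difference of -0.69 ± 0.10 (SE), a fold of 0.62, from 38.8 ± 4.02 on LF to 24.1 ± 3.24 on HFS (SD, n = 6 each). Its unadjusted p of 8.33e-06 was the smallest of all 12980 models, yet the limma adjusted p was 0.108 and did not pass. edgeR gave an adjusted p of 0.0881 and DESeq2 one of 3.47e-05, so the call depended on the tool. Slc25a29 was 1 of 36 carriers whose LF and HFS libraries did not overlap, and the share of all models that were lower without overlap was 0.208%. Without Lean-HFS 2 the difference was -0.64.

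The difference had nearly the same size in the offspring of both kinds of dam. Slc25a29 was picked by its p in the average of both differences, so their likeness is not separate evidence. It was -0.70 ± 0.14 in Lean offspring (limma adjusted p = 0.881) and -0.68 ± 0.14 in GDM offspring (limma adjusted p = 0.761). The interaction was 0.01 ± 0.20 with a limma adjusted p of 0.999. Slc25a29 was also lower in GDM than in Lean offspring by -0.24 ± 0.10 (limma adjusted p = 0.398), with libraries that overlapped when both diets were pooled. On LF its range was 34.0 to 36.3 in GDM and 40.1 to 44.7 in Lean offspring. On HFS the ranges of 19.8 to 23.8 and 22.4 to 28.4 overlapped. Of the neighbours of Slc25a29 on chromosome 6, Yy1, 10126 bases away, differed by 0.05 ± 0.07 and Wars, 23266 bases away, by 0.06 ± 0.07 between HFS and LF. Slc25a47, 14544 bases away, had too few reads to test.

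**Figure D3:**
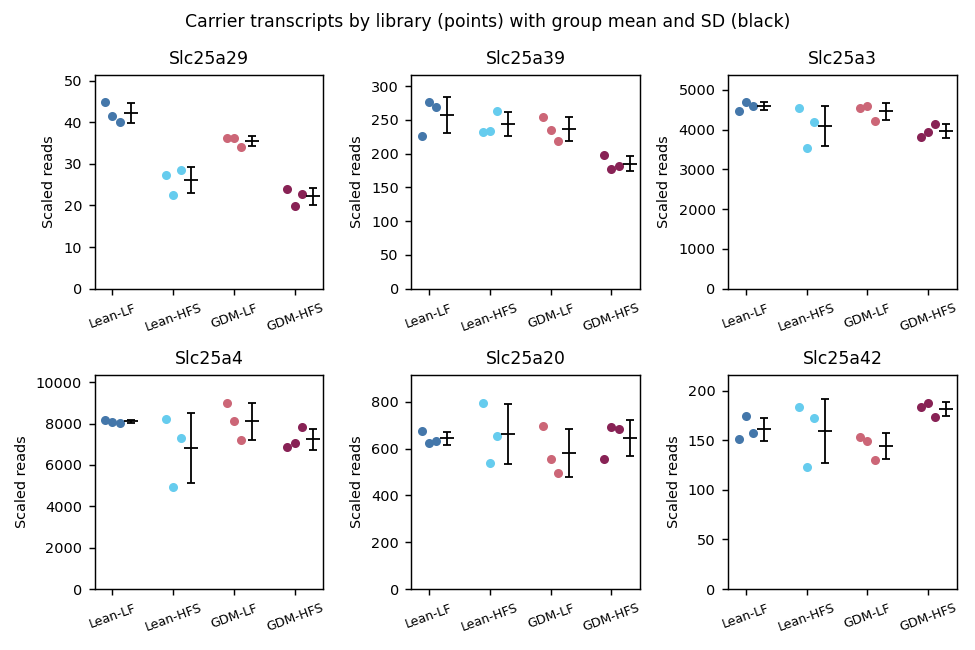
Scaled reads of 6 carriers in the 12 libraries (points, by group) with the group mean and SD in black, all axes from 0. Slc25a29 is lower in all 6 HFS libraries than in all 6 LF libraries, Slc25a39 is lowest in GDM-HFS, and Lean-HFS 2 is the lowest point of Slc25a3, Slc25a4 and Slc25a42.

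Markers of several cell types also had differences between the diet groups, with none called by limma. All 10 of 10 cardiomyocyte markers were lower under HFS (median -0.23), with sums of 152910 to 210447 on HFS and 198011 to 235302 on LF. All 6 of 6 adipocyte markers were higher (sums 165 to 325 on HFS, 127 to 197 on LF), as were 4 of 4 smooth muscle markers (614 to 2437 on HFS, 567 to 944 on LF) and 8 of 8 atrial markers (3482 to 18975 on HFS, 1254 to 11492 on LF). The adipocyte markers Lep and Cidec were at 0 in 1 and 2 LF libraries. Each of these sums overlapped between diets. Their part in the Slc25a29 difference was not tested.

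Slc25a39, a carrier needed for glutathione import into mitochondria, had its lowest values in GDM-HFS hearts. Its model lies at chr10:90351899-90356242 (Rnor_6.0, minus strand). Lean-LF hearts had 226.7, 275.8 and 269.3 scaled reads, Lean-HFS hearts 232.5, 234.0 and 263.7, GDM-LF hearts 254.6, 235.4 and 219.4, and GDM-HFS hearts 197.4, 177.3 and 181.1. All 3 GDM-HFS values lay below the other 9. GDM-HFS was lower than Lean-HFS by a log2 difference of -0.39 ± 0.10 (limma adjusted p = 0.309) and lower than GDM-LF by -0.35 ± 0.10 (limma adjusted p = 0.761). Of the 36 carriers, 5 did not overlap in the first of these comparisons (13.8% of all models) and 5 in the second (11.4% of all models).

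Averaged over diets, Slc25a39 was lower in GDM offspring by -0.26 ± 0.07 (limma adjusted p = 0.201), and averaged over dams it was lower under HFS by -0.21 ± 0.07 (limma adjusted p = 0.491). The interaction of -0.27 ± 0.14 had a limma adjusted p of 0.999, so the dam difference was not shown to differ between diets. Markers of several cell types differed between the same groups, with none called by limma. Of the erythroid markers, all 6 of the 6 tested were lower in GDM offspring (median -0.46) and all 6 were lower under HFS (median -0.34), and their sum was 2834 to 5593 in GDM-HFS against 5864 to 10360 in the other 9 libraries. GDM-HFS 2 had both the lowest erythroid sum and the lowest Slc25a39. No erythroid marker of the 6 was at 0. Macrophage markers were lower in GDM offspring in 7 of 7 (median -0.46), with sums of 663 to 735 in GDM-HFS, 715 to 840 in GDM-LF, 775 to 856 in Lean-LF and 761 to 1428 in Lean-HFS. Endothelial markers were lower in GDM-HFS than in Lean-HFS in 7 of 7 (median -0.26), with sums of 2775 to 3145 and 3344 to 3503. All 4 of 4 smooth muscle markers had a positive difference between these 2 groups (median 1.16), with sums of 912 to 2437 in GDM-HFS and 614 to 890 in Lean-HFS. So did 8 of 8 atrial markers (median 1.14), with overlapping sums of 5534 to 18975 in GDM-HFS and 3482 to 6284 in Lean-HFS. The part of these markers in the Slc25a39 result was not tested.

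Like Slc25a39, the other carriers of iron and haem metabolism had overlapping libraries for both dam and diet. Slc25a38, which supplies glycine for haem synthesis, averaged 43.7 ± 8.25 scaled reads in the Lean offspring against 36.5 ± 5.53 in the GDM offspring, a log2 difference of -0.25 ± 0.12 (limma adjusted p = 0.459), and differed by -0.25 ± 0.12 between diets (limma adjusted p = 0.649). The iron importer Slc25a37 (mitoferrin 1) differed by 0.10 ± 0.10 for dam and 0.01 ± 0.10 for diet, and its relative Slc25a28 (mitoferrin 2) by -0.01 ± 0.11 and 0.03 ± 0.11. Slc25a40, close in sequence to Slc25a39, was higher in GDM offspring by 0.37 ± 0.12 (limma adjusted p = 0.264), but its model overlaps that of Rundc3b, whose value was 69.1% of its own, and is uncertain. Rundc3b itself differed by 0.08 ± 0.11.

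Of the ADP/ATP carriers, Slc25a4 had 8198, 8085 and 8029 scaled reads in Lean-LF and 8219, 4923 and 7298 in Lean-HFS. It had 9009, 8119 and 7198 in GDM-LF and 6875, 7051 and 7834 in GDM-HFS. Lean-HFS 2 was far below the rest. The diet difference was -0.22 ± 0.12 (limma adjusted p = 0.658) and became -0.11 without Lean-HFS 2. The dam difference was 0.06 ± 0.12 and turned to -0.05 without that library. Slc25a5, which has processed pseudogenes that could share its reads, had means of 293 ± 19.0 on LF and 284 ± 28.4 on HFS, and a diet difference of -0.05 ± 0.07 that was -0.089 without Lean-HFS 2 and turned positive with values as deposited. The ratio of Slc25a4 to Slc25a5 per kb was 20.4 to 24.5 in 11 libraries and 12.2 in Lean-HFS 2.

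The phosphate carrier Slc25a3, which brings in the phosphate for ATP synthesis, had 4478, 4681 and 4585 scaled reads in Lean-LF and 4542, 3543 and 4189 in Lean-HFS. It had 4541, 4604 and 4219 in GDM-LF and 3806, 3950 and 4141 in GDM-HFS. All HFS hearts apart from Lean-HFS 1 lay below every LF heart. The diet difference was -0.17 ± 0.07 (limma adjusted p = 0.597) and -0.12 without Lean-HFS 2. The cardiomyocyte markers given above had a median diet difference of -0.23, and their part in the values of Slc25a3 and Slc25a4 was not tested.

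The calcium-regulated ATP-Mg/phosphate carriers had no common direction. Slc25a24 had 42.8 to 82.1 on HFS and 34.8 to 52.2 on LF, a difference of 0.36 ± 0.15 (limma adjusted p = 0.606), with its highest value in Lean-HFS 2 and 0.24 without it. Slc25a25 differed by 0.29 ± 0.17 and Slc25a23 by -0.10 ± 0.10 between diets.

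Carboxylate and glutamate carriers, which link the malate-aspartate shuttle and the citric acid cycle to the cytosol, held no limma call. Slc25a11 had 605 ± 44.8 on LF and 550 ± 69.1 on HFS, a difference of -0.14 ± 0.08 (limma adjusted p = 0.684). Without Lean-HFS 2, which had 478 scaled reads, the difference was -0.085. The citrate carrier Slc25a1 differed by 0.03 ± 0.20 between diets and the dicarboxylate carrier Slc25a10 by 0.12 ± 0.17. For dam, Slc25a10 differed by -0.52 ± 0.24 on LF and by 0.08 ± 0.24 on HFS (limma adjusted p = 0.981 and 0.948), with an interaction of 0.60 ± 0.34 (limma adjusted p = 0.999). Slc25a21 differed by -0.13 ± 0.07 for diet and by the same for dam, at -0.13 ± 0.07.

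The 2 glutamate carriers were near the floor of detection. Slc25a18 had 10 to 30 reads per library and a diet difference of -0.17 ± 0.28. Slc25a22 had 4, 7 and 4 reads in Lean-LF, 10, 4 and 8 in Lean-HFS, 6, 6 and 8 in GDM-LF and 8, 0 and 0 in GDM-HFS. Its fitted difference between GDM-HFS and Lean-HFS was -2.82 ± 0.94 (limma adjusted p = 0.386) and rests on the libraries GDM-HFS 2 and GDM-HFS 3. With other settings it ranged from -4.98 to -1.01, so its size depends on the constant added to 0 and no fold is given. The deposited table lists this gene with 2 copies, so reads may be shared between them.

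Carriers of fatty acid and cofactor metabolism overlapped between the 6 LF and the 6 HFS libraries. Slc25a20, which brings acylcarnitines in for oxidation, had 494.7 to 694.4 on LF and 537.1 to 795.7 on HFS, a difference of 0.09 ± 0.10 (limma adjusted p = 0.839). Leaving out Lean-HFS 2, its lowest HFS library, gave 0.16, and leaving out the highest, Lean-HFS 1, gave 0.02. The coenzyme A carrier Slc25a42 had 151.8, 174.2 and 157.4 in Lean-LF, 183.9, 123.2 and 172.2 in Lean-HFS, 153.8, 149.3 and 129.9 in GDM-LF and 184.0, 187.9 and 173.8 in GDM-HFS. The 3 GDM-HFS hearts lay above the 3 GDM-LF hearts, by 0.34 ± 0.13 (limma adjusted p = 0.863). Its averaged diet difference was 0.15 ± 0.09, and 0.24 without Lean-HFS 2 (limma adjusted p = 0.421). The folate and flavin carrier Slc25a32 differed by -0.04 ± 0.09 between diets. The peroxisomal Slc25a17 had 60.6 ± 8.48 on LF and 70.5 ± 7.13 on HFS, a difference of 0.22 ± 0.09 (limma adjusted p = 0.603).

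Slc25a2, an ornithine carrier, had 3.31, 3.39 and 6.45 scaled reads in Lean-LF, 6.21, 4.66 and 5.12 in Lean-HFS, 7.01, 7.71 and 7.17 in GDM-LF and 7.61, 7.37 and 6.44 in GDM-HFS. It was higher in GDM offspring by 0.61 ± 0.21 (limma adjusted p = 0.338) on 12 to 46 reads per library. The GDM range of 6.44 to 7.71 overlapped the Lean range of 3.31 to 6.45 by the margin of 1 library. The other ornithine carrier, Slc25a15, differed by 0.06 ± 0.14.

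Of the carriers related to uncoupling proteins, Slc25a30 had 90.4 ± 7.40 in Lean and 108 ± 16.0 in GDM offspring, a difference of 0.25 ± 0.10 (limma adjusted p = 0.39). For dam, Slc25a14 differed by 0.17 ± 0.13, Slc25a27 by 0.29 ± 0.26 the uncoupling protein gene Ucp2 by -0.18 ± 0.13 and Ucp3 by 0.17 ± 0.35. The dam difference of Slc25a14 was 0.41 ± 0.18 on LF and -0.06 ± 0.18 on HFS (limma adjusted p = 0.981 and 0.951), with an interaction of -0.46 ± 0.26 (limma adjusted p = 0.999).

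Of the remaining carriers named by role, the pyrimidine nucleotide carrier Slc25a33 differed by -0.07 ± 0.13 between diets, the branched-chain amino acid carrier Slc25a44 by -0.03 ± 0.08 and Slc25a46 by -0.06 ± 0.06. Slc25a34 had 267 ± 42.2 on LF and 251 ± 53.2 on HFS, a difference of -0.10 ± 0.14. Slc25a45 had 10.8, 11.2 and 11.8 in GDM-HFS, below all Lean-HFS (13.5 to 24.2) and GDM-LF libraries (15.5 to 24.2), by -0.78 ± 0.35 and -0.76 ± 0.35 (limma adjusted p = 0.498 and 0.863). The Lean-LF values of Slc25a45 ran from 9.66 to 30.2 and spanned all of these. The model of Slc25a35 overlaps that of Rangrf, whose value was 435% of its own, so its diet difference of -0.27 ± 0.13 is uncertain. The methyl donor carrier Slc25a26 differed by 0.06 ± 0.07 and Slc25a16 by 0.00 ± 0.08.

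The library Lean-HFS 2 had the lowest value of 10 of the 36 carriers (27.8%), beside 15.3% of all tested models, and of 6 of the 10 carriers with the highest level per kb. The median deviation of the 36 carriers from their 12-library means was -0.18 (log2) in that library. In the other 11 it lay between -0.12 and 0.09. The low carriers in Lean-HFS 2 included Slc25a3, Slc25a4, Slc25a23, Slc25a34, Slc25a42 and Slc25a46, whereas Slc25a5 had its highest value of all libraries there (325).

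**Figure D4:**
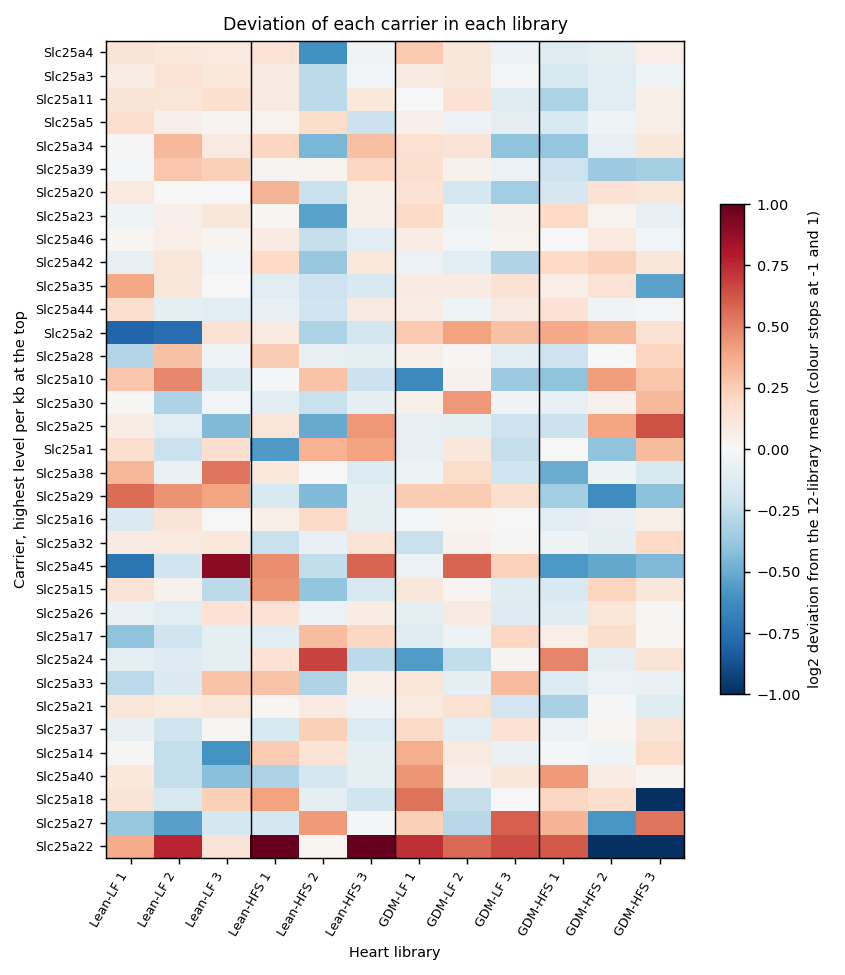
Log2 deviation of 35 of the 36 carriers (rows, highest level per kb at the top) from its mean over the 12 libraries (columns, by group), with red above and blue below the mean and colours ending at -1 and 1. Lean-HFS 2 is blue for most of the upper rows, and the Slc25a29 row is red in the 6 LF columns and blue in the 6 HFS columns.

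Genes that work beside the carriers had mostly negative differences for diet, and limma called none in either averaged comparison. Over all tested models 47.8% of diet differences were negative and 7.92% had a limma p under 0.05. Of 14 tested genes of the import machinery for carriers (TOM complex, small TIMs, TIM22), 11 were lower under HFS (median -0.10) and 3 had a limma p under 0.05: Timm8b at -0.24 ± 0.08, Timm10 at -0.26 ± 0.11 and Timm29 at -0.21 ± 0.08. Of 21 other mitochondrial transport genes, 14 were lower (median -0.05), with Mpc1, a subunit of the pyruvate carrier, at -0.25 ± 0.07 (limma adjusted p = 0.405). Of 20 enzymes on either side of carriers, 15 were lower (median -0.11) and 3 had a limma p under 0.05. These were Bcat2, the mitochondrial branched-chain aminotransferase, at -0.40 ± 0.13 (limma adjusted p = 0.476), Got2, the mitochondrial aspartate aminotransferase, at -0.20 ± 0.09, and Alas1, the first enzyme of haem synthesis, at -0.19 ± 0.08. The median of all tested models was 0.01. The cardiomyocyte markers were lower in the same libraries, and their part was not tested.

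Carriers under other symbols varied between single hearts, and 4 of the 6 tested were higher under HFS (median 0.20). Ucp1, the brown fat uncoupling protein, was at 0 in 7 libraries and reached 37.8 in GDM-HFS 3 and 11.4 in Lean-HFS 1, and the adipocyte gene Plin1 had 45.9 and 8.79 in the same libraries. Ucp2 ran from 934 to 1745 and Ucp3 from 38.3 to 171. The carrier-like outer membrane proteins Mtch1 and Mtch2 ran from 223 to 294 and from 384 to 572.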

How the data were processed

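Per the labels, ribosomal RNA was depleted, directional NEBNext Ultra II libraries were made, and paired reads of 100 bases were aligned with STAR 2.5.1b to Rnor_6.0. The submitters' processing notes also list Trim Galore, FastQC, HOMER 4.9 and edgeR, without roles. The authors' table is named FPKM, but its deposited values are a signal: in each library every value was a whole multiple of 1 step, within 0.1 read, for 100% of values, and was not divided by length. Of 334 models nested in another (mean value at least 20), 333 had a host value at least as large. Spans with introns thus appear to have been counted without regard to strand, but the nested models were not split by strand. Which tool counted them is not stated in any source at hand.

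Values were divided by median-of-ratios factors, filtered at a mean of 0.5, and tested with limma 3.58.1 (R 4.3.3) on log2(value + 0.1), with 4 group means and 8 residual degrees of freedom, in 7 comparisons. Differences are on this log2 scale, which shrinks those of low genes. Benjamini-Hochberg adjustment ran over 12980 models, threshold 0.05, two-sided. The scripts were tested on simulated data. edgeR 4.0.16 and DESeq2 1.42.0 on the recovered whole reads were alternatives, beside other constants, filters, scalings, a replicate block and leaving out each library. Both tools were given the reads as recovered, with no correction for even counts.

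Tests had been planned for FPKM, and the log-scale test was kept. Carriers named were those called, the 5 with the smallest p in each comparison, the 10 with the highest level per kb and those fixed by role. Slc25a15, Slc25a16, Slc25a25 and Slc25a26 were named after their values were seen. Members, lists and markers were chosen with earlier results of these data known. Models whose overlapping neighbour holds at least 25% of their value are named as uncertain. Promoters came from RefSeq (GRCr8). The values of 1 tested carrier are not reported here; it stays in the counts and medians.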

Additional observations from a re-analysis of the deposited data

Results flagged for a closer look

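Carrier values were checked for single libraries far from the others of the same dam or the same offspring diet (6 libraries each). A library was listed when its gap to the nearest other exceeded Dixon's 95% critical share of the whole range. For independent sets of like libraries, chance flags about 1 in 20, or 7.4 of the 148 checked, and 11 were found. The sets here mix diets or dams and share libraries, so 7.4 is only a rough guide. Lean-HFS 2 accounts for most of them. Among Lean libraries it was far below the others for Slc25a4 (4923), Slc25a11 (478) and Slc25a23 (120) and far above them for Slc25a24 (82.1). Among HFS libraries it was far below for Slc25a42 (123). Its per-kb ratio of Slc25a4 to Slc25a5, at 12.2, stood apart among both the Lean and the HFS libraries.

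The other values belonged to 4 libraries. Among LF libraries, Slc25a32 was low in GDM-LF 1 (39.7), Slc25a21 low in GDM-LF 3 (487) and Slc25a35 high in Lean-LF 1 (30.4). Among GDM libraries, Slc25a35 was low in GDM-HFS 3 (16.0).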

How the results depend on the processing

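No carrier was called in any of the 7 comparisons under the other constants, filters, scalings, variance settings, edgeR, the replicate block or any of the 12 fits that left out 1 library. DESeq2 called 1, Slc25a29 for HFS against LF (-0.68). The Slc25a29 diet difference ranged from -0.71 to -0.59 over 11 alternatives (adjusted p 3.47e-05 to 0.296) and from -0.72 to -0.64 when 1 library was left out (limma adjusted p 0.129 to 0.567).

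With values as deposited the carrier medians became 0.11 for GDM-LF against Lean-LF, 0.074 for GDM-HFS against Lean-HFS, 0.071 for Lean-HFS against Lean-LF and 0.050 for GDM-HFS against GDM-LF. The dam average became 0.071 and the diet average 0.058, while the medians of all models moved to between 0.10 and 0.11. Under that scaling the dam differences of Slc25a3 (0.070), Slc25a5 (0.027) and Slc25a20 (0.018) and the diet difference of Slc25a5 (0.053) changed sign. Slc25a3 for dam also did so under quantile normalization (0.037). Leaving out Lean-HFS 2 turned the dam differences of Slc25a4 (range over left-out libraries -0.051 to 0.13) and Slc25a42 (-0.064 to 0.080), and leaving out Lean-HFS 3 turned the diet difference of Slc25a5 (-0.089 to 0.0079). The cause was not tested. Left-out libraries moved the number of carriers at an unadjusted limma p under 0.05 between 2 (without GDM-LF 1 or GDM-LF 2) and 8 (without GDM-LF 3) for HFS against LF, and between 1 (without Lean-HFS 2) and 5 (without Lean-HFS 1) for Lean-HFS against Lean-LF.

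Replicate numbers were treated as shared numbers and not as pairs, since the labels tie them to no litter or day and not every pair correlated: the correlation of deviations between same-numbered libraries had a median of 0.000487 (-0.0978 to 0.116 over 18 pairs), 1 of them over 0.1, although 8 of 12 libraries had their highest mean correlation with libraries of their own number in the other groups. With the replicate block 0 carriers were called in each comparison, and the smallest adjusted p for diet was 0.27.

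Depth limits the carriers with few reads: Slc25a22, with 0 to 10 reads, had the widest standard errors.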
